A study of Rattus norvegicus with 20 samples.

Results

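MHC class II antigen presentation was followed through 8 genes in RNA sequencing of neonatal rat heart cell cultures. RT1-DMa and RT1-DMb encode the alpha and beta chains of DM, RT1-Da, RT1-Db1, RT1-Ba and RT1-Bb encode the classical antigen-presenting chains, Cd74 encodes the invariant chain, and Ciita encodes the transactivator of the family. The genes were chosen by name, with earlier results of these data known. Of the 8, 4 (RT1-DMa, RT1-DMb, Cd74 and Ciita) had values that could be used among the 15503 genes of the table. All 4 passed the filter on low counts. RT1-Da, RT1-Db1, RT1-Ba and RT1-Bb were not analysed here. A pair of further class II chains, RT1-DOb and RT1-Db2, was measured and is described beside the members, while RT1-DOa and RT1-Ha were not analysed here. The cultures are labelled neonatal rat cardiomyocytes and were kept for 72 h in 1 of 4 conditions with 5 libraries each. The conditions were histidine at 100 nM with doxorubicin at 1 µM, doxorubicin alone at 1 µM, histidine alone at 100 nM, and phosphate-buffered saline (PBS). Doxorubicin is an anthracycline cancer drug that poisons topoisomerase II and damages heart muscle. Histidine is an amino acid and the precursor of histamine. The labels give no strain, sex or pooling of animals, and do not say that the 5 libraries of a group came from separate cultures. P-values therefore measure the spread between these libraries, which may be technical.

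MHC class II molecules are pairs of an alpha and a beta chain that carry peptides from the endosome to the cell surface, where helper T cells read them. A new class II pair is blocked by the invariant chain Cd74, which proteases trim to the fragment CLIP. DM then removes CLIP so that a peptide can bind, and DO, a related pair, restrains DM. Ciita does not bind DNA itself but joins RFX, CREB and NF-Y proteins on the X and Y boxes of class II promoters, and interferon gamma induces it. Macrophages, dendritic cells and B cells are the professional class II cells, and in the heart resident macrophages are the best known of them.

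Total counts were 58226690 to 71856131 with both compounds, 54072746 to 83624651 with doxorubicin, 53246205 to 71623955 with histidine and 63561787 to 78204997 with PBS. On the first principal component of log2 CPM (read counts scaled to the size of the library), which held 62.6% of the variance, all 10 doxorubicin libraries lay apart from the 10 others. On the second, which held 7.43%, doxorubicin replicate 4 stood alone at 107.9, and the other 19 libraries lay between -18.95 and 9.035. Cardiomyocyte markers were present: 10 measured genes summed to 192 ± 11.2 CPM with both compounds, 205 ± 45.4 CPM with doxorubicin, 973 ± 65.3 CPM with histidine and 1041 ± 50.5 CPM with PBS. Macrophage markers were present too: 14 genes summed to 159 ± 7.83, 178 ± 36.1, 2554 ± 260 and 2488 ± 42.7 CPM in that order of groups (SD, n = 5 each). Fibroblast genes were far more abundant: 8 genes, led by collagens, summed to 54442 ± 6232, 46824 ± 10135, 71460 ± 8463 and 79827 ± 3087 CPM. The labelled cardiomyocytes were thus measured together with RNA of other cell types. In such bulk RNA, fewer cells of a type and less RNA per cell cannot be told apart.

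With doxorubicin, both DM genes fell, and they fell by very different amounts. RT1-DMa was 11.7-fold lower than with PBS, RT1-DMb was nearly lost, and Cd74 and Ciita, which were scarce in every group, did not pass the test against PBS. In all, 2 of the 4 measured members were lower with doxorubicin than with PBS by edgeR's quasi-likelihood test (Benjamini-Hochberg adjusted p under 0.05), where 21.5% of the 15449 genes tested were lower and 43.2% were called in either direction. The median log2 fold change of the 4 members was -2.14, beside 0.05 for all genes tested. When histidine was present in both arms, 3 of the 4 members were lower, where 20.3% of all genes were lower and 40.2% were called. Their median was -2.31, beside 0.01 for all genes. These comparisons share no library.

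RT1-DMa (ENSRNOG00000066773) is annotated at chr20:4707028-4710432 on the minus strand of mRatBN7.2 as a protein-coding gene. Its level was 2.66, 2.20, 2.46, 2.27 and 1.87 CPM in the 5 doxorubicin libraries, against 25.2, 26.5, 26.9, 28.4 and 26.6 CPM with PBS. The groups did not overlap (31.1% of all genes did not overlap in this comparison) and both were tight. The log2 fold change was -3.54 ± 0.13 (SE), an 11.7-fold lower level (edgeR, adjusted p = 5.351e-14). With both compounds the level was 2.13, 1.50, 2.53, 2.30 and 1.67 CPM, against 24.0, 26.0, 29.6, 26.5 and 23.8 CPM with histidine. The groups again did not overlap, where 35.2% of all genes did not. The log2 fold change was -3.68 ± 0.13 (edgeR, adjusted p = 3.075e-14).

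RT1-DMb (ENSRNOG00000049491) lies beside it at chr20:4693103-4700340, also on the minus strand, and no other gene of the table overlaps either of them. In the doxorubicin libraries it had 12, 4, 0, 0 and 10 reads, against 2011, 2001, 2592, 2463 and 2163 reads with PBS. As levels these were 0.199, 0.0715, 0, 0 and 0.144 CPM with doxorubicin and 32.2, 30.1, 34.4, 32.6 and 34.4 CPM with PBS. Every doxorubicin library was at or close to 0, and the lowest PBS library was at 30.1 CPM. In the libraries with 0 reads, replicates 3 and 4, 3 reads would be 0.0420 and 0.0398 CPM, so levels up to about there cannot be told from 0. The log2 fold change was -8.66 ± 0.49 (edgeR, adjusted p = 2.414e-11), the 19th most negative of the 15449 genes tested. RT1-DMa was 337th.

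With both compounds RT1-DMb had 1, 17, 4, 4 and 7 reads, against 2132, 1592, 2118, 2098 and 1361 reads with histidine. Replicate 2 held 17 of the 33 reads of the group. The log2 fold change was -8.22 ± 0.48 (edgeR, adjusted p = 3.195e-11). Because so few reads were left, the size of this fall moved with single libraries. Against PBS it was -9.26 without doxorubicin replicate 1 and -7.85 without replicates 3 and 4. Against histidine it was -8.96 without replicate 2 of both compounds. All of these passed the test.

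**Figure D1:**
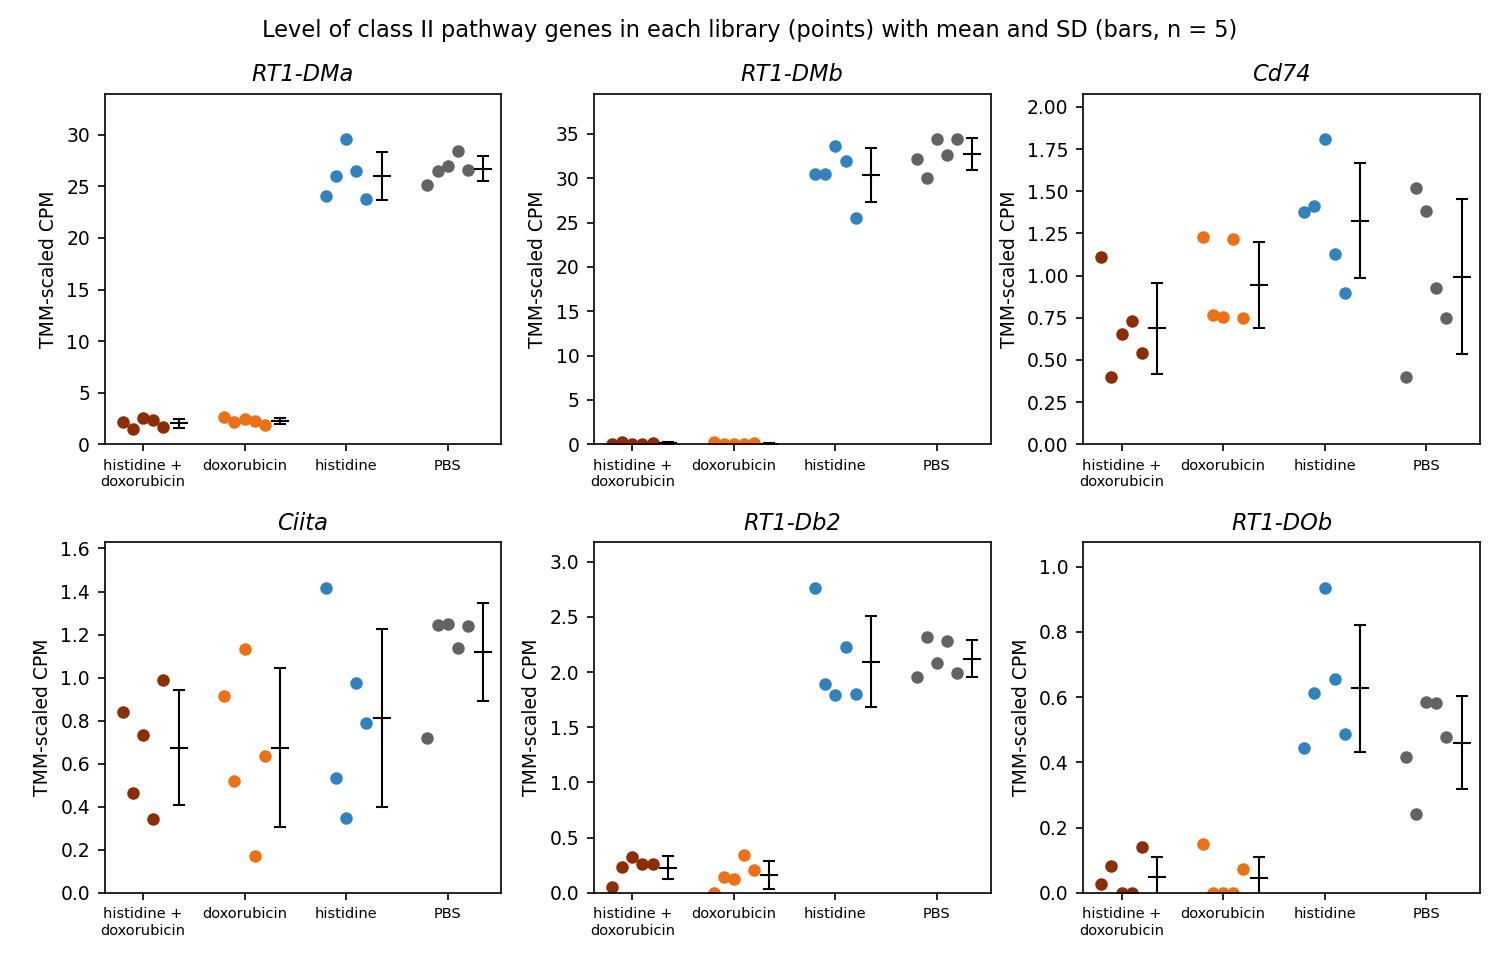
TMM-scaled CPM of the 4 measured members and of RT1-Db2 and RT1-DOb in each library (points, replicates 1 to 5 from left to right) with the mean and SD of the group (bars, n = 5); each panel has its own linear axis from 0. RT1-DMa and RT1-DMb lie at 2.66 CPM or lower in all 10 libraries with doxorubicin and at 23.8 CPM or higher in all 10 without it, while the points of Cd74 and Ciita are scattered between 0.172 and 1.81 CPM in all groups.

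DM works as a pair of 1 alpha and 1 beta chain, so the balance of the reads of its genes was examined. This share was chosen after the values were seen. Its separation between groups follows from the unequal falls given above, so its p-values restate them and are no further support. RT1-DMb supplied 6.98, 3.15, 0, 0 and 7.14% of the DM reads in the doxorubicin libraries, against 56.1, 53.1, 56.1, 53.4 and 56.4% with PBS. The means were 3.45 ± 3.53% with doxorubicin and 55.0 ± 1.61% with PBS (SD, n = 5 each). The groups did not overlap, and the exact two-sided permutation test over 252 arrangements gave p = 0.00794, the smallest it can give (0.0159 after Benjamini-Hochberg adjustment over 4 comparisons). With both compounds the share was 0.633, 15.7, 2.41, 2.42 and 6.09%, against 55.9, 53.9, 53.2, 54.7 and 51.7% with histidine. The means were 5.46 ± 6.08% with both compounds and 53.9 ± 1.58% with histidine, with the same exact permutation p = 0.00794 (adjusted 0.0159).

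The share rests on 127 to 176 DM reads per library with doxorubicin and 108 to 166 with both compounds. Its 95% Clopper-Pearson interval was therefore wide in these libraries, for example 9.45 to 24.0% in replicate 2 of both compounds, the library with the highest share. In the 2 doxorubicin libraries with 0 RT1-DMb reads, the upper ends of this interval were 2.07% (0 of 176 DM reads) and 2.13% (0 of 171). A limit of 3 reads, the rule used here for a count of 0, gives 1.70% and 1.75%. Intervals and limits cover counting error only. Per length, the ratio of RT1-DMb to RT1-DMa in FPKM (fragments scaled to gene length and library size) was 0.0310 ± 0.0319 with doxorubicin and 1.03 ± 0.0662 with PBS. It was 0.0556 ± 0.0611 with both compounds and 0.987 ± 0.0628 with histidine.

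**Figure D2:**
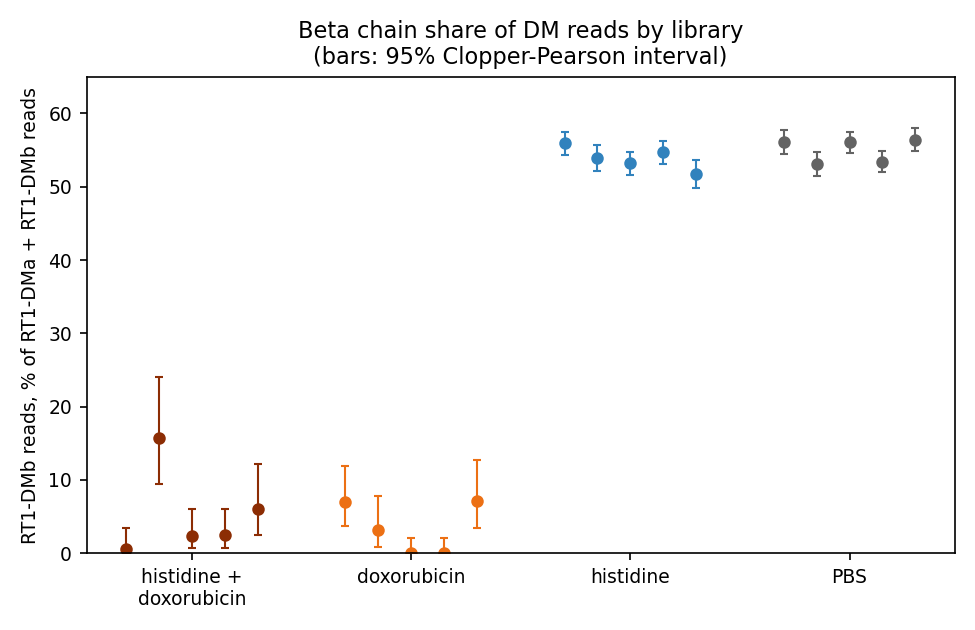
Reads of RT1-DMb as a percentage of the reads of RT1-DMa and RT1-DMb together in each library (points), with 95% Clopper-Pearson intervals that cover counting error only. The 10 libraries with doxorubicin lie between 0 and 15.7%, and the 10 without it between 51.7 and 56.4%.

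Cd74 (ENSRNOG00000018735, chr18:54256778-54266003, plus strand) encodes the invariant chain, which is usually among the most abundant transcripts of class II cells. Here it was scarce in every group. It had 74, 43, 54, 92 and 52 reads with doxorubicin, against 25, 101, 104, 70 and 47 reads with PBS. The PBS libraries spanned the doxorubicin ones, from 0.400 to 1.52 CPM around 0.750 to 1.23 CPM. The log2 fold change was -0.08 ± 0.33, with a 95% interval of -0.73 to 0.57 (edgeR, adjusted p = 0.873). With both compounds Cd74 had 82, 24, 42, 51 and 35 reads, against 96, 74, 114, 74 and 48 reads with histidine. That was 0.687 ± 0.269 CPM with both compounds and 1.32 ± 0.341 CPM with histidine, in groups that overlapped.

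This difference passed the test at -0.94 ± 0.34 (edgeR, adjusted p = 0.0306), but only just. It did not pass when any of 6 libraries was left out, namely histidine replicates 1, 2 and 3 and replicates 2, 3 and 5 of both compounds, with adjusted p up to 0.0804. On log2(FPKM + 0.1) with limma it was -0.61 (adjusted p = 0.135). The change of Cd74 with doxorubicin was not shown to depend on histidine, since the interaction was -0.87 ± 0.47 (edgeR, adjusted p = 0.631).

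Ciita (ENSRNOG00000002659, chr10:5140178-5187440, minus strand) had 55, 29, 81, 13 and 44 reads with doxorubicin, against 45, 83, 94, 86 and 78 reads with PBS. Its level was 0.675 ± 0.370 CPM with doxorubicin and 1.12 ± 0.228 CPM with PBS. PBS replicate 1, at 0.719 CPM, lay within the doxorubicin libraries, and the 4 other PBS libraries lay above all of them. The log2 fold change was -0.73 ± 0.42, with a 95% interval of -1.56 to 0.10 (edgeR, adjusted p = 0.174). With both compounds it had 62, 28, 47, 24 and 64 reads, against 99, 28, 22, 64 and 42 reads with histidine. The libraries of these groups were mixed, and the log2 fold change was -0.27 ± 0.43 (edgeR, adjusted p = 0.657).

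RT1-Db2 (chr20:4520713-4539705, minus strand) is a beta chain gene of the classical D family. It is very similar to RT1-Db1, and reads of these genes could have been split or shared by the counting, so its values are uncertain. It had 0, 8, 9, 26 and 14 reads with doxorubicin, against 122, 154, 157, 172 and 125 reads with PBS. With both compounds it had 4, 14, 21, 18 and 17 reads, against 193, 99, 113, 146 and 96 reads with histidine. Neither pair of groups overlapped, where 31.1% of all genes did not against PBS and 35.2% did not against histidine. The log2 fold changes were -3.66 ± 0.49 against PBS and -3.21 ± 0.47 against histidine (edgeR, adjusted p = 4.276e-06 and 1.7e-05).

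RT1-DOb (chr20:4619816-4625667, minus strand) encodes the beta chain of DO. It had 9, 0, 0, 0 and 5 reads with doxorubicin, against 26, 16, 44, 44 and 30 reads with PBS. With both compounds it had 2, 5, 0, 0 and 9 reads, against 31, 32, 59, 43 and 26 reads with histidine. All libraries with doxorubicin had fewer reads than any without it, where 31.1% and 35.2% of all genes did not overlap. Every gene of the table reached at least 51 reads in some library. RT1-DOb did so only in histidine replicate 3, at 59 reads, and RT1-DMb and RT1-Db2 only in libraries without doxorubicin. Their presence in the table thus rests on groups in which they were high, and the separation of the groups is no further support. The log2 fold changes of RT1-DOb were -3.36 ± 0.84 and -3.63 ± 0.83 (edgeR, adjusted p = 0.00297 and 0.0015). Without doxorubicin replicate 1 the fall against PBS was -4.52, and without replicates 3 and 4 it was -2.59. Without replicate 5 of both compounds the fall against histidine was -4.47.

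Per length, the order of the 6 genes differed between the groups. With doxorubicin, RT1-DMa led at 1.95 ± 0.294 FPKM, followed by Cd74 at 0.390 ± 0.104, Ciita at 0.0940 ± 0.0546, RT1-DMb at 0.0602 ± 0.0642, RT1-Db2 at 0.0543 ± 0.0390 and RT1-DOb at 0.0139 ± 0.0215 FPKM. The ranges of the last 4 genes overlapped their neighbours in this order. With PBS, RT1-DMb led at 23.1 ± 1.27 FPKM and RT1-DMa stood at 22.4 ± 0.865, with overlapping ranges. RT1-Db2 at 0.703 ± 0.0527 and Cd74 at 0.505 ± 0.266 FPKM overlapped, as did RT1-DOb at 0.157 ± 0.0491 and Ciita at 0.150 ± 0.0304 FPKM (SD, n = 5 each).

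Among all 15503 genes, 82.6% had a lower mean FPKM with PBS than RT1-DMb and 82.1% a lower one than RT1-DMa. The same percentage was 16.7% for RT1-Db2, 13.9% for Cd74, 6.37% for RT1-DOb and 6.07% for Ciita. Of these 6 genes DM was the most abundant per length, and Cd74 and Ciita were among the lower genes of the table. The classical members, not analysed here, have no place in this order. FPKM of 3 of these genes need care, since reads divided by FPKM implied a length that varied between libraries: 1471 to 2516 bases for Cd74, 1368 to 3535 for RT1-DOb and 965 to 2047 for RT1-DMb. For RT1-DMb the spread lay in the libraries with doxorubicin, which hold few of its reads, and the length was 1376 to 1383 bases with PBS. RT1-DMa gave 1160 to 1207 bases.

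With histidine alone no class II gene passed the test. RT1-DMa averaged 26.0 ± 2.33 CPM in histidine libraries, against 26.7 ± 1.17 CPM in PBS libraries. RT1-DMb averaged 30.4 ± 3.03 CPM in histidine libraries, against 32.7 ± 1.80 CPM in PBS libraries. Their log2 fold changes were -0.04 ± 0.12 (95% interval -0.27 to 0.19) and -0.11 ± 0.31 (-0.72 to 0.51). None of the 4 members passed the test, at an adjusted or an unadjusted threshold or with DESeq2, and 0% of all genes did (edgeR, 0 genes, with 312 at an unadjusted p under 0.05 and 5 called by DESeq2). The 4 members overlapped between the groups, where 0.841% of all genes did not.

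Nor did histidine change the doxorubicin values detectably. RT1-DMa was 2.03 ± 0.430 CPM with both compounds and 2.29 ± 0.294 CPM with doxorubicin, a log2 fold change of -0.18 ± 0.12 (95% interval -0.42 to 0.07). RT1-DMb was 0.104 ± 0.104 CPM with both compounds and 0.0830 ± 0.0883 CPM with doxorubicin, a log2 fold change of 0.33 ± 0.67 (-0.98 to 1.65). That interval allows a change of either sign. None of the 4 members passed, at an adjusted or an unadjusted threshold or with DESeq2, and 0% of all genes did (edgeR, 0 genes, with 1940 at an unadjusted p under 0.05 and 20 called by DESeq2). All 4 overlapped, where 1.06% of all genes did not. The DMb share of DM reads was 5.46% with both compounds and 3.45% with doxorubicin (exact two-sided permutation p = 0.627), and 53.9% with histidine and 55.0% with PBS (exact two-sided permutation p = 0.286, adjusted 0.381). In the interaction term 0 members and 0% of all genes passed (edgeR, 1060 genes at an unadjusted p under 0.05, 15 by DESeq2).

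Promoters are shown for the measured class II genes with a sequence at hand, namely RT1-DMa, RT1-Db2, RT1-DOb and Cd74. No sequence was at hand for RT1-DMb, which fell most, or for Ciita. The part of the promoters in these changes was not tested. RefSeq sequences of rat assembly GRCr8 run from 250 bases before to 50 bases after each annotated start and are written 5′ to 3′ on the strand of the gene. Capitals mark matches to the Y box core GATTGG, or its reverse complement, and to the X1 box core GCAACNG, which were searched on both strands. The positions are chr20:4712286-4712585 (minus) for RT1-DMa, chr20:4541546-4541845 (minus) for RT1-Db2, chr20:4627474-4627773 (minus) for RT1-DOb and chr18:56526956-56527255 (plus) for Cd74.
RT1-DMa: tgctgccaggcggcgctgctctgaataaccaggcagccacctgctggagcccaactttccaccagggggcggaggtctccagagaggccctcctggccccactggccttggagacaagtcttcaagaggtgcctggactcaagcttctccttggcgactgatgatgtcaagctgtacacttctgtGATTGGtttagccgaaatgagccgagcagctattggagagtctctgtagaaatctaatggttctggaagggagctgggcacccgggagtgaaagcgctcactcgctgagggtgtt
RT1-Db2: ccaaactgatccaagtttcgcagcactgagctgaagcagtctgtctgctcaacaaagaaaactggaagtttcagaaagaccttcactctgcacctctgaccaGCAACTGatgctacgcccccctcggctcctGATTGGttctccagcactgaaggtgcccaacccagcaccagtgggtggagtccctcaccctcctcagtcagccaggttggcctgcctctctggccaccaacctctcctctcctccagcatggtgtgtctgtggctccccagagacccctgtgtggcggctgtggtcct
RT1-DOb: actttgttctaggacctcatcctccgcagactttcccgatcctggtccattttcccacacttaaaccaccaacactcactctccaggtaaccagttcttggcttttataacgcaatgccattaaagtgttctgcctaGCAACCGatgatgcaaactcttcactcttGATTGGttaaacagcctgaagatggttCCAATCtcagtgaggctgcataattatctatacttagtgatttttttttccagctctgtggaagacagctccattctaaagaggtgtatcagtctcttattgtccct
Cd74: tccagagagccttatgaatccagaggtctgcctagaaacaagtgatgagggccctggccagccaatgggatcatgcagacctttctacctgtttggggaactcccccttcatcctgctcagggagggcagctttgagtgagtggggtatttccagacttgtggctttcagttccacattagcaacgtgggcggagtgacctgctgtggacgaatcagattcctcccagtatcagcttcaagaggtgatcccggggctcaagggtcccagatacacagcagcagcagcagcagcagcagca

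The RT1-Db2 window held an X1 core 148 to 142 bases and a Y core 118 to 113 bases upstream of the start. RT1-DOb held an X1 core at 113 to 107 bases and Y cores at 84 to 79 and, in the other orientation, 57 to 52 bases upstream. RT1-DMa held a Y core at 65 to 60 bases and no match to the X1 letters, and the Cd74 window held neither. Of the 8 members, 6 were in the promoter table. The Y core was found in 5 of these 6 (RT1-DMa, RT1-Da, RT1-Db1, RT1-Ba and RT1-Bb), the X1 core in 3 and both in the same 3 (RT1-Da, RT1-Db1 and RT1-Ba). Of all 33469 promoters of the table, 14.8% held the Y core, 12.2% the X1 core and 1.77% both. A match is a description of letters, and a missing match says only that these letters are not in the window.

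The class II chains are interleaved on chromosome 20 with class I genes, and these neighbours stayed between -0.90 and 0.53 on the log2 scale. Within chr20:4520713-4735388 of mRatBN7.2, 10 genes were tested. The 4 class II chains fell 9.23- to 404-fold in the comparisons with doxorubicin. Between RT1-DOb and RT1-DMb lie Tap2, Psmb8, Tap1 and Psmb9, which encode the peptide transporter and immunoproteasome subunits of the class I pathway. Tap1 was 61.7 ± 5.42 CPM with doxorubicin and 42.8 ± 1.71 CPM with PBS, a rise of 0.53 ± 0.09 on the log2 scale (edgeR, adjusted p = 4.933e-05). Tap1 and Psmb9 overlap on opposite strands, and the libraries do not mark strand, so their reads cannot be fully separated.

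Tap2 did not pass at -0.13 ± 0.10 (edgeR, adjusted p = 0.301). Psmb8 was lower at -0.49 ± 0.16 (adjusted p = 0.0191), a call that was lost without doxorubicin replicate 2 or replicate 3 (adjusted p = 0.0516 and 0.0536). With both compounds against histidine, Psmb8 changed by -0.90 ± 0.16 and Psmb9 by -0.56 ± 0.18 (edgeR, adjusted p = 0.0001639 and 0.0162). The groups did not overlap for either gene, where 35.2% of all genes did not. Both calls held in each of 10 fits without 1 library. Psmb9 was singled out after its values were seen, and was -0.27 ± 0.18 with doxorubicin against PBS (adjusted p = 0.234). It passed in 1 of 10 fits, that without doxorubicin replicate 4, at -0.52 (edgeR, adjusted p = 0.00225). Without replicates 3 and 4 it was -0.45 (adjusted p = 0.0116). On the other side of RT1-DMa, Brd2, which encodes a bromodomain protein and was named for its position after its values were seen, was 192 ± 14.4 CPM with doxorubicin and 168 ± 9.27 CPM with PBS. Its log2 fold change was 0.20 ± 0.06 (edgeR, adjusted p = 0.0124), a call lost with only these groups in the fit (adjusted p = 0.0606). With both compounds against histidine Brd2 changed by 0.18 ± 0.06 (adjusted p = 0.0209). That call was lost without histidine replicate 5 (0.0512) or without replicate 3 of both compounds (0.0691).

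**Figure D3:**
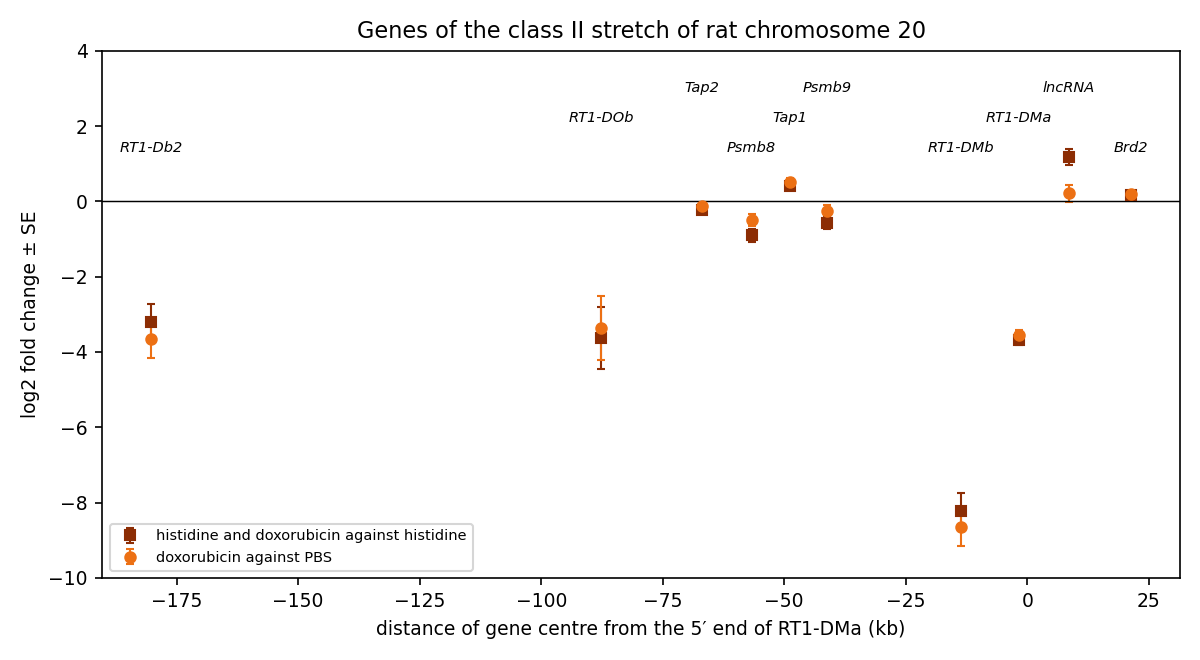
Log2 fold change ± SE (edgeR, n = 5 per group) of the 10 tested genes of the class II stretch of rat chromosome 20, by the distance of the gene's centre from the 5′ end of RT1-DMa in kb. Both comparisons with doxorubicin place RT1-Db2, RT1-DOb, RT1-DMb and RT1-DMa at -3.21 or lower and the 6 other genes between -0.90 and 1.18. The label lncRNA was drawn for a gene without a symbol in the table and was not taken from an annotation. That gene lies at 1.18 with both compounds against histidine and at 0.21 with doxorubicin against PBS.

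Genes of the endolysosomal step, in which the invariant chain is trimmed and antigens are processed, mostly fell with doxorubicin. Of 7 measured genes of the endolysosomal step, 5 were lower and 1 higher than with PBS, with a median of -0.84. Of all genes tested, 21.5% were lower in this comparison and 43.2% were called in either direction. Ctss, the cathepsin that makes the last cuts of the invariant chain in professional class II cells, fell by 4.92 ± 0.25 on the log2 scale (edgeR, adjusted p = 3.69e-12). Lgmn, the asparaginyl endopeptidase, changed by -1.99 ± 0.08 (adjusted p = 1.432e-13), and Ifi30, the thiol reductase of antigen processing, by -1.19 ± 0.11 (adjusted p = 3.782e-08). Ctsl, another cathepsin, changed by -0.84 ± 0.14 (adjusted p = 5.641e-05). With both compounds against histidine, 6 of the 7 were lower and 1 was higher, with a median of -1.25. There 20.3% of all genes were lower and 40.2% were called.

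Genes of class II turnover at the surface were lower or did not pass, while those of co-stimulation were divided. Marchf1, the ubiquitin ligase that removes class II from the surface, changed by -6.08 ± 0.74 (edgeR, adjusted p = 1.403e-06), or -8.80 without doxorubicin replicate 3. Cd83, which opposes that ligase, changed by -4.32 ± 0.38 (adjusted p = 1.622e-08). Marchf8, the related ligase of many cell types, changed by -0.23 ± 0.08 (adjusted p = 0.0312). Its call was lost in 5 of the 10 fits without a library, those without PBS replicates 1, 2 or 5 or doxorubicin replicates 4 or 5, with adjusted p up to 0.0878. All 3 genes of surface turnover were thus lower than with PBS, where 21.5% of all genes were lower. With both compounds against histidine 2 of the 3 were lower, where 20.3% of all genes were.

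Of the 6 co-stimulatory and co-inhibitory ligands, 4 were lower and 1 was higher in each comparison. Of all genes, 43.2% were called in either direction against PBS and 40.2% against histidine. Cd86 changed by -6.41 ± 0.67 (edgeR, adjusted p = 1.655e-07), or -7.35 without doxorubicin replicate 3. Pdcd1lg2, which encodes PD-L2, changed by -5.72 ± 0.72 (adjusted p = 2.126e-06), or -6.78 without doxorubicin replicate 5. Cd274, which encodes PD-L1, changed by -2.66 ± 0.18 (adjusted p = 3.562e-10). Cd80, the partner of Cd86 as a ligand of CD28, went the other way at 37.4 ± 6.4 CPM with doxorubicin and 15.4 ± 1.06 CPM with PBS. Its log2 fold change was 1.28 ± 0.11 (edgeR, adjusted p = 6.376e-09), and 1.54 ± 0.11 with both compounds against histidine (adjusted p = 4.683e-10).

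Regulators upstream of class II were counted beside the share of all genes called. Of the 8 measured factors that bind class II promoters, the RFX, NF-Y and CREB group, 0 passed against PBS (edgeR; 0 at an unadjusted p under 0.05, and 0 by DESeq2), where 43.2% of all genes were called. Rfxank was -0.17 ± 0.12 and Nfyc -0.15 ± 0.08 (adjusted p = 0.296 and 0.154). Creb1 was 1.10 ± 0.61, with a wide spread between libraries (adjusted p = 0.151). Atf1, another of the 8, passed without doxorubicin replicates 3 and 4 at -0.24 (edgeR, adjusted p = 0.0357), but in 0 of 10 fits without 1 library. With both compounds against histidine 1 was higher and 2 were lower, 3 of 8, where 40.2% of all genes were called. Of the 6 measured genes between the interferon gamma receptor and Ciita, 2 were higher with doxorubicin than with PBS, where 43.2% of all genes were called. Jak2, a kinase of the receptor, rose by 0.83 ± 0.15 (adjusted p = 0.0001735). Irf1, a factor that acts on Ciita, was 0.29 ± 0.10 higher (adjusted p = 0.0234), a call lost in 4 of 10 fits without a library (PBS replicates 1 or 4, doxorubicin replicates 3 or 5; adjusted p up to 0.0664). With both compounds against histidine, 2 were higher and 1 was lower, 3 of 6, where 40.2% of all genes were called. Ifngr2, a receptor chain, changed by -0.40 ± 0.09 (edgeR, adjusted p = 0.00128), and Jak2 by 0.64 ± 0.15 (adjusted p = 0.00189). Jak1, the other receptor kinase, changed by 0.17 ± 0.06 (adjusted p = 0.0382). That call was lost without histidine replicates 1, 2, 3 or 4 or replicates 1, 2 or 4 of both compounds (adjusted p up to 0.0979). With doxorubicin against PBS, Ifngr2 and Jak1 did not pass (edgeR, adjusted p = 0.163 and 0.502), but each passed in 1 of 10 fits. That was the fit without doxorubicin replicate 4, at -0.27 and 0.11 (adjusted p = 0.000686 and 0.0443).

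In the MHC class I pathway the calls went both ways. Of 12 measured genes, 2 were higher, 1 was lower and 9 did not pass with doxorubicin against PBS, with a median of 0.03, where 43.2% of all genes were called. Nlrc5, the class I counterpart of Ciita, was 0.47 ± 0.16 higher (edgeR, adjusted p = 0.0214). That call was lost in 4 of 10 fits (each without 1 library: PBS 1, PBS 5, doxorubicin 3, doxorubicin 5), with adjusted p up to 0.0632. With both compounds against histidine, 2 were higher and 4 lower, 6 of 12, where 40.2% of all genes were called. There Nlrc5 was 0.76 ± 0.16 higher (edgeR, adjusted p = 0.0006787) in groups that did not overlap, where 35.2% of all genes did not. A difference between these genes and DM was not tested.

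**Figure D4:**
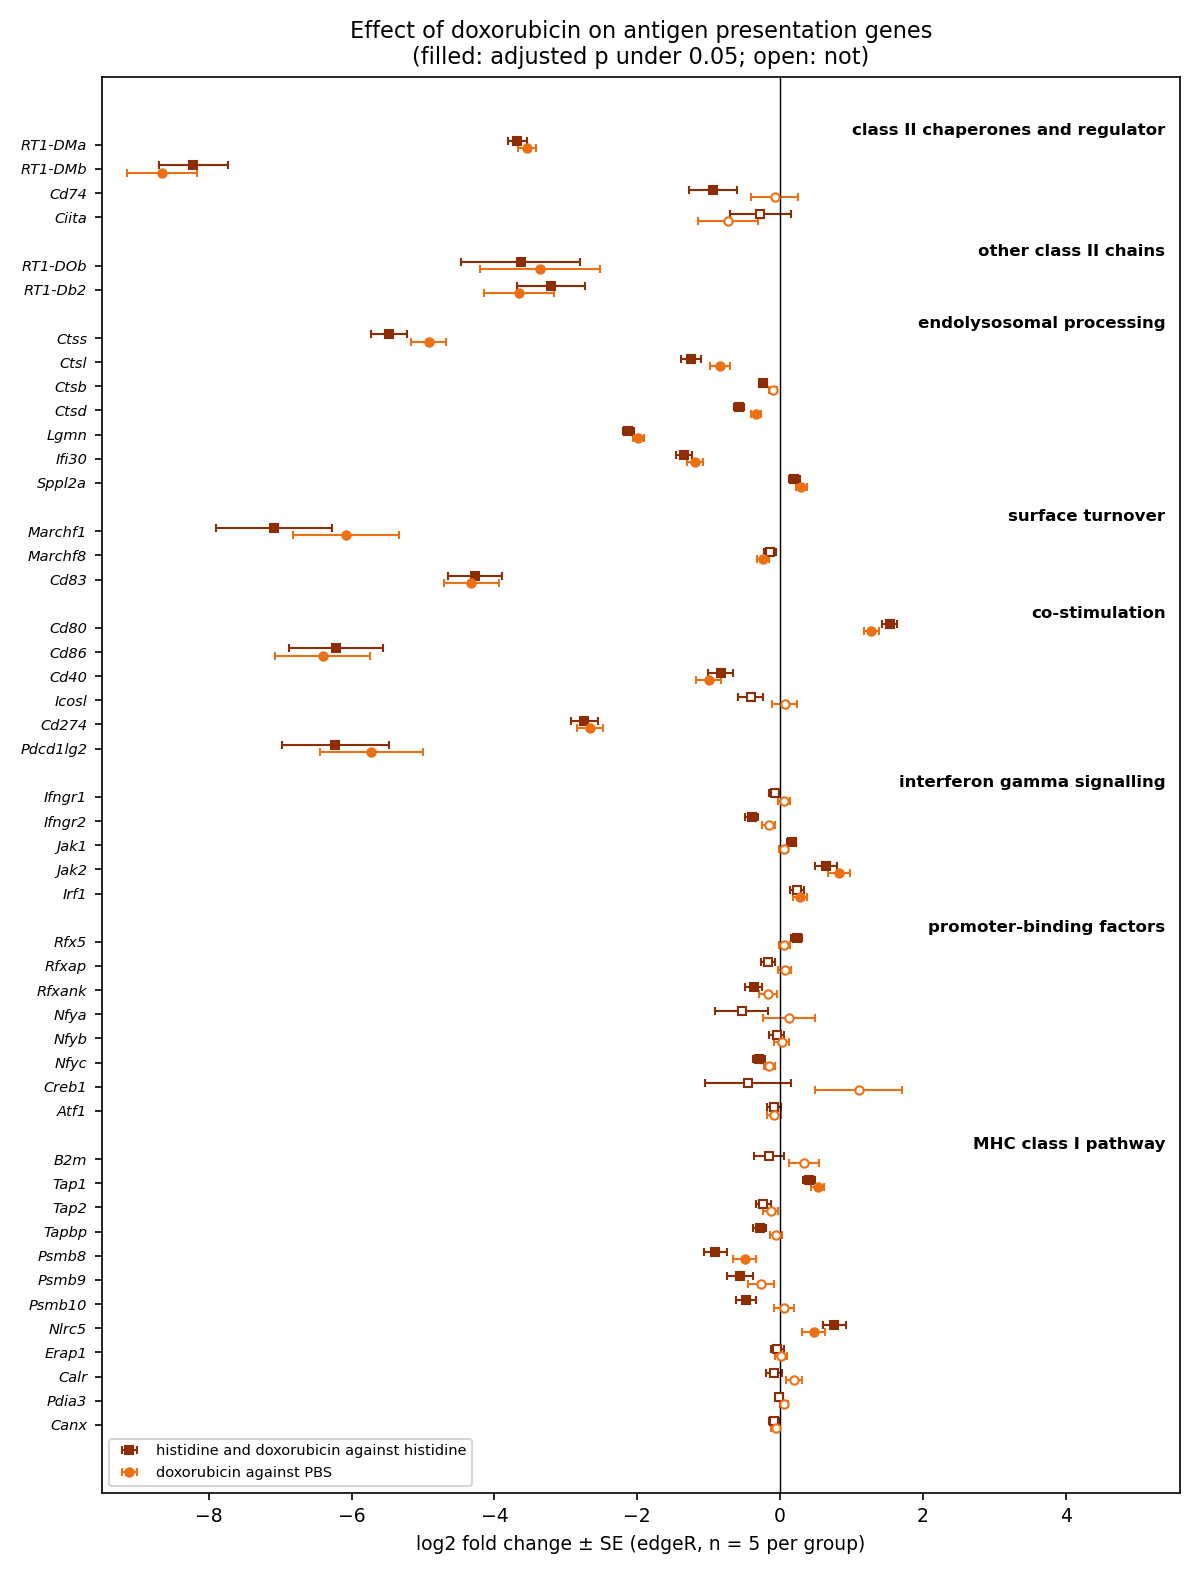
Log2 fold change ± SE (edgeR, n = 5 per group) of measured genes of the class II pathway lists and of the MHC class I pathway for the comparisons with doxorubicin (squares, both compounds against histidine; circles, doxorubicin against PBS); filled symbols passed an adjusted p of 0.05. RT1-DMb has the lowest values of all genes shown at -8.66 and -8.22, while promoter-binding factors, interferon gamma signalling and the class I pathway lie between -0.90 and 1.10.

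Macrophage markers were lower in the same comparisons in which RT1-DMa, RT1-DMb, RT1-DOb and RT1-Db2 were lower. All 14 measured macrophage markers were lower in both comparisons (edgeR), where 21.5% and 20.3% of all genes were lower. The medians of the markers were -6.17 against PBS and -6.35 against histidine. Their summed level ranged from 147 to 168 CPM with both compounds, 153 to 241 CPM with doxorubicin, 2401 to 3015 CPM with histidine and 2445 to 2538 CPM with PBS. Fcer1g, the Fc receptor gamma chain, made up most of what was left, at 138 ± 22.7 CPM with doxorubicin and 323 ± 14.2 CPM with PBS. The 13 others summed to 40.0 ± 14.3 CPM with doxorubicin and 2165 ± 47.4 CPM with PBS. C1qb was at 0 reads in 3 libraries with both compounds and in 1 with doxorubicin, and Cx3cr1 in 1 with both compounds and in 2 with doxorubicin. No other marker was at 0 in any library.

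Set against these markers, the DM genes sat at opposite ends. With doxorubicin RT1-DMb kept 0.254% of its PBS level, and 13 of the 14 markers kept more. RT1-DMa kept 8.58%, and 13 of the 14 markers kept less, from 0.237% for Cx3cr1 to 4.85% for Cd68, with Fcer1g above it at 42.9%. RT1-DOb kept 9.64% and RT1-Db2 7.69%. Cd74 at 95.01% and Ciita at 60.3% kept more than any of the 14 markers. With both compounds the shares of the histidine level were 0.344% for RT1-DMb, 7.80% for RT1-DMa, 7.94% for RT1-DOb, 10.8% for RT1-Db2, 51.9% for Cd74 and 82.9% for Ciita. The part of the macrophage markers in the class II results was not tested.

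**Figure D5:**
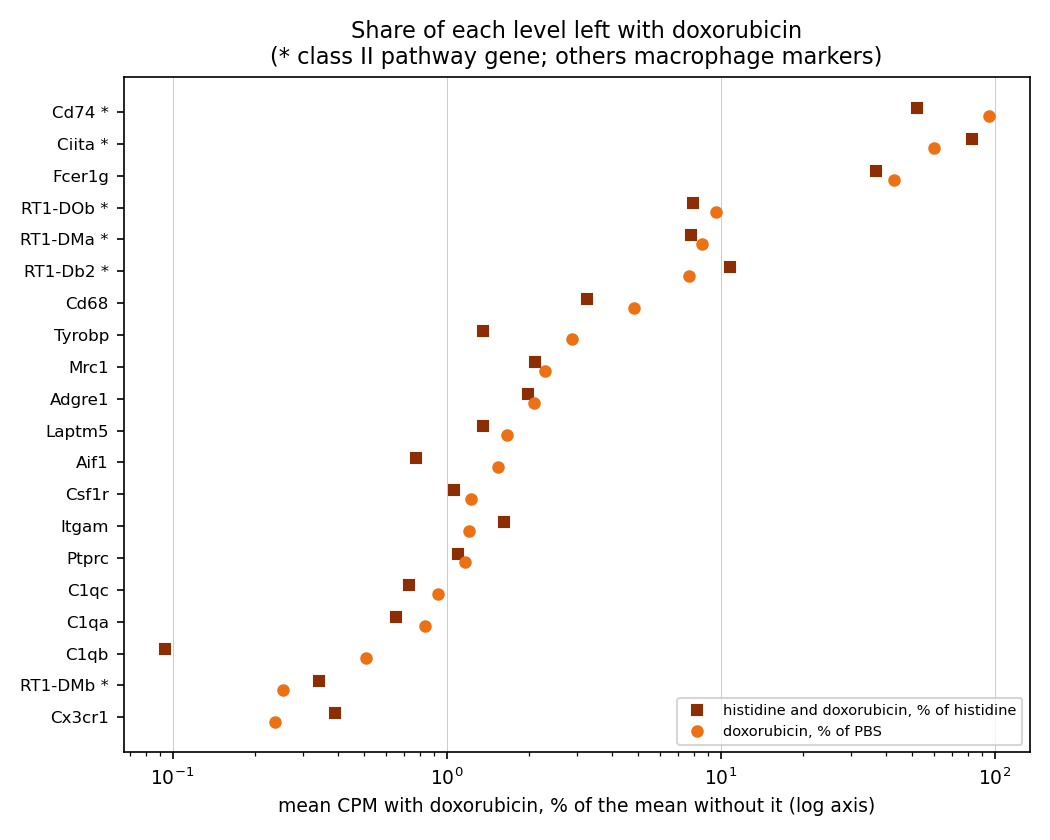
Mean CPM with doxorubicin as a percentage of the mean without it, on a log axis, for the 6 class II pathway genes (asterisks) and the 14 macrophage markers, ordered by the comparison with PBS. RT1-DMb stands at 0.254% between Cx3cr1 and C1qb, RT1-DMa at 8.58% above all markers but Fcer1g, and Cd74 and Ciita at the top.

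Other professional class II cells left fewer traces. Of 7 listed dendritic cell markers, 3 were measured. Itgax and Batf3 were lower in both comparisons, where 21.5% and 20.3% of all genes were lower, and Zbtb46 did not pass. The sum of these 3 markers was 8.55 ± 0.370 CPM with both compounds, 7.18 ± 0.611 CPM with doxorubicin, 56.4 ± 6.56 CPM with histidine and 54.3 ± 1.85 CPM with PBS. Of 5 B cell markers only Cd79b was measured, at 0 in all 10 libraries with doxorubicin, 1.17 ± 0.299 CPM with histidine and 0.971 ± 0.518 CPM with PBS. It is thus in the table only through the libraries without doxorubicin. Of 5 T cell markers 0 were measured. The part of these cell types in the class II results was not tested either.

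Outside the pathway, the genes whose profile over the 20 libraries was closest to the median of the 4 members were Cdt1, Sh3kbp1, Fancd2, Slc7a8, Psd4 and Atp13a2. Likeness was the root mean square difference of log2 CPM centred on PBS, which was 0.253 for Cdt1 and 0.266 for Atp13a2 among 8016 candidates. Cdt1 licenses DNA replication, and Fancd2 acts in DNA crosslink repair. Because the members split into a falling and a scarce pair, each DM gene was also used alone, a choice made after the values were seen. The closest genes to RT1-DMa were then Myo1f (0.251), a myosin of leukocytes, and Bub1b (0.285) and Plk1 (0.288), which act in mitosis. The closest to RT1-DMb were Gna15 (0.797), Pik3cg (0.858) and Parvg (0.889), known from blood cells. These are descriptions over libraries that share their treatments.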

How the data were processed

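RNA of 20 libraries of neonatal rat heart cell cultures was sequenced. Per the labels' protocols, mRNA was taken on oligo(dT) beads and copied from random hexamers without marking strand. The submitters' processing notes list Trimmomatic and the build mRatBN7.2, with no aligner or counter given in the sources used here. Deposited values were whole-number read counts per gene and, per the file headers, FPKM values that the authors scaled by length and depth. Columns were matched to samples by library name. Gene symbols came from protein accessions (7638 genes), KEGG names (2689) or protein names (9), through a RefSeq table of GRCr8 used for names and promoters.

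Counts were tested with edgeR 4.0.16 in R 4.3.3 (filterByExpr, 15449 genes; TMM; quasi-likelihood F test; 4 groups in 1 fit; Benjamini-Hochberg over all genes; threshold 0.05). The SE is the log2 fold change over the root of F. CPM are TMM-scaled. Alternatives were DESeq2 1.42.0, limma 3.58.1 on log2(FPKM + 0.1) or + 1, other scaling, filters and samples, and a replicate block. On simulated data the procedure recovered 38.8% of 67 genes changed 1.5-fold, 74.6% of 67 changed 2-fold and 93.9% of 66 changed 4-fold. It made 3 false calls, and many small changes would thus be missed. No library was a duplicate: chi-square per degree of freedom was 34.9 to 649 over 40 within-group pairs.

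The members and gene lists were chosen with earlier results of these data known. Named genes were all members and, per pathway list, up to 4 genes with the smallest p in doxorubicin against PBS. A gene that this rule took is not reported here.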

Additional observations from a re-analysis of the deposited data

Results flagged for a closer look

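Ciita in PBS replicate 1 stood apart from its group. Its level there was 0.7194 CPM, and the 4 other PBS libraries lay between 1.139 and 1.248 CPM. The gap to the nearest of them was 0.794 of the whole range of the group, above the limit of 0.71 that Dixon's test sets for 5 samples. In all, 24 groups (6 class II genes in 4 conditions) were checked in this way, and chance marks about 1 in 20.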

How the results depend on the processing

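RT1-DMa, RT1-DMb, RT1-Db2 and RT1-DOb were lower past the threshold in both comparisons with doxorubicin under every alternative that tested them; RT1-Db2 and RT1-DOb were not tested at a mean of at least 1 FPKM. Leaving out each library in turn gave -3.61 to -3.48 for RT1-DMa and -9.26 to -8.30 for RT1-DMb against PBS, and -3.77 to -3.59 and -8.96 to -7.91 against histidine. The difference in RT1-DMb share of DM reads, an alternative chosen after seeing the data, stayed between -52.5 and -50.7 points against PBS. Against histidine it stayed between -51.0 and -47.2 points. Without doxorubicin replicates 3 and 4 it was -49.3 points against PBS (exact permutation p = 0.0179, the smallest possible there). The share restates the unequal falls of the DM genes, so these values are no further support. On log2(FPKM + 1) the RT1-DMb change was -4.51 against PBS, since the added constant exceeds the level left. With only the doxorubicin and PBS groups in the fit, the calls of Irf1, Marchf8, Psmb8, Nlrc5 and Brd2 were lost (edgeR, adjusted p = 0.067, 0.0903, 0.0876, 0.0733 and 0.0606). With only both compounds and histidine in the fit, Irf1 passed (edgeR, adjusted p = 0.0426).

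The calls over all genes that numbered 0 depended on the tool. DESeq2 called 5 genes for histidine against PBS, 20 for both compounds against doxorubicin and 15 for the interaction. For histidine against PBS, limma on log2(FPKM + 1) called 1 and the fit without doxorubicin replicates 3 and 4 called 1. For both compounds against doxorubicin, limma on genes with a mean of at least 1 FPKM called 2 and the fit without those replicates 2. Leaving out each library gave 0 to 1, 0 to 6 and 0 to 2 genes. The cause was not tested.

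Changes that did not pass turned sign. For both compounds against doxorubicin, Ciita was 0.000171 with only these groups, 0.027 and 0.000575 with limma at + 0.1 and + 1, and -0.25 to 0.27 without single libraries. Without doxorubicin replicates 3 and 4, RT1-DMb was -0.48 and RT1-DOb -0.60 in this comparison, and RT1-DMb -0.37 in the interaction. Without single libraries they ran from -0.41 to 0.93, from -0.66 to 1.33, and in the interaction from -0.31 to 1.04 for RT1-DMb and -1.11 to 0.89 for RT1-DOb. Cd74 ran from -0.27 to 0.13 against PBS, RT1-Db2 from -0.14 to 0.033 for histidine against PBS, and Ciita from -0.47 to 0.026 for both compounds against histidine.

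Deviations of same-numbered libraries were weakly correlated (from -0.0305 to 0.193). The best match had the same number in 0 to 3 of 5 cases per comparison, with 3 for both compounds against doxorubicin. The labels name no pairs, so the numbers were used only as an alternative. With the replicate block, Ciita was 0.021 for both compounds against doxorubicin and RT1-Db2 0.022 for histidine against PBS. The block changed no call of a class II gene. Libraries held 24 to 114 Cd74 reads and 13 to 99 Ciita reads, and whether depth or the spread between libraries limits these comparisons was not tested.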
